A study of Mus musculus with 10 samples.

Results

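The genes described here belong to one signalling route, from the leukemia inhibitory factor (LIF) receptor and the shared receptor chain gp130 to the feedback inhibitor SOCS3, in microglia of the hippocampus. The 10 members, *Lifr*, *Il6st*, *Il6ra*, *Osmr*, *Jak1*, *Jak2*, *Stat3*, *Socs3*, *Socs2* and *Cish*, were picked by symbol from the 55453 genes of the count table. They were chosen on earlier values of these libraries, because *Lifr* and *Socs3* differed between subsets of the libraries from animals given glatiramer acetate (GA). That difference is therefore given as a description, without a test. All 10 members were found in the table, and 8 of them passed the filter on low counts, while *Osmr* and *Cish* did not.

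All 10 libraries came from female 3xTg mice, which carry mutated human transgenes, *APP* and *MAPT* among them, driven by the neuronal Thy1.2 promoter and were kept as a homozygous colony. The animals were more than 15 months old, and the paper describes them as retired breeders. The 5 GA libraries are from mice given 0.1 mg of GA, a synthetic polypeptide drug used in multiple sclerosis, per injection over 8 weeks (weekly per the labels, with an extra injection in the first week per the study's methods), and the 5 PBS libraries are from mice given phosphate-buffered saline. RNA was sequenced in bulk from sorted hippocampal CD45int CD11b+ cells, and no library of non-transgenic animals was analysed here, so the route could be compared between treatments but not with healthy brain. In addition to the treatment, each library title carries a prefix: all 5 PBS libraries carry 388, 2 GA libraries carry 394 and 3 GA libraries carry 400. What the prefix stands for is not given in the sources used here. PBS and GA libraries never share a prefix, so treatment and prefix cannot be told apart.

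LIF binds the receptor encoded by *Lifr*, which then pairs with gp130, the product of *Il6st*. Interleukin-6 binds its own receptor chain, encoded by *Il6ra*, before it engages gp130, and oncostatin M can signal through gp130 with the chain encoded by *Osmr*. The paired chains activate the kinases JAK1 and JAK2, these phosphorylate the transcription factor STAT3, and STAT3 switches on *Socs3*, whose protein binds gp130 and the kinases and shuts the signal down. *Cish* and *Socs2* encode related inhibitors that are best known as targets of STAT5.

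The libraries held 32332185 to 38764643 counts each. Levels are given as CPM, normalized counts scaled to a common library size. The microglial marker *P2ry12* had 6603 to 7351 CPM in the PBS libraries and 5570.0 to 6881 CPM in the GA libraries, *Tmem119* had 5412 to 6472 and 4927 to 5789.6 CPM and *Cx3cr1* had 6657 to 7847 and 6600.5 to 7215 CPM, respectively. Markers of neurons summed to at most 1.74 CPM, those of T and NK cells to at most 0.482 CPM and those of astrocytes to at most 8.37 CPM in any library. Those of oligodendrocytes summed to 77.2 to 111 CPM, those of monocytes to 27.8 to 83.6 CPM and those of neutrophils to 9.76 to 423 CPM. Lower in GA at an unadjusted p-value under 0.05 in edgeR were 2 of 4 tested monocyte markers and 6 of 7 neutrophil markers. Over all genes tested, 459 of 14481 were. Of the monocyte markers, *Ccr2* had 17.9 to 49.0 CPM with PBS and 26.6 to 31.1 CPM with GA. *Chil3* had 0.687 to 32.3 CPM with PBS and 0.404 to 10.8 CPM with GA. The markers of border macrophages summed to 40.9 to 235 CPM, with the highest value in PBS library 388_4. In such bulk samples, fewer cells of a type and less RNA per cell cannot be told apart. The labels do not say whether each library is a separate animal, so that the tests measure the spread between these libraries.

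STAT proteins bind the palindrome TTCNNNGAA, which was searched for on both strands (it is its own reverse complement) in RefSeq promoter windows of 300 bases, running from 250 bases before to 50 bases after a transcript start on GRCm38.p6. Windows were found for 9 of the 10 members, with 2 for *Lifr*. The motif was present in the windows of *Socs3* and *Cish*, thus in 2 of 10 windows of members and in 8.30% of all 32851 windows. The 2 stretches with the motif, in capitals, are shown 5′ to 3′ because no other window of a member held the motif. For *Socs3* the stretch lies on the minus strand at chr11:117969507-117969525, with the motif starting 154 bases upstream of the RefSeq transcript start. For *Cish* it lies on the plus strand at chr9:107296654-107296683 and holds the motif 2 times, the first time from the first base of the transcript. 
Socs3: cagccTTCTTAGAAgggag
Cish: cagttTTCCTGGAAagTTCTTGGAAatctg
The windows of *Lifr*, *Il6st*, *Il6ra*, *Osmr*, *Stat3*, *Jak1* and *Jak2* did not hold these letters. The RefSeq starts used here differ from the ends of some gene spans given below, which are from GENCODE. Both stretches and both windows of *Lifr* lie inside those spans. Such a match describes the sequence and was not tested as a binding site.

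Hippocampal microglia expressed most of the route, but at very different levels. Per kilobase of merged exons, the 5 PBS libraries had a mean ± SD of 55.9 ± 8.99 CPM for *Il6st* and 55.6 ± 6.13 CPM for *Jak1*. These 2 genes did not differ in order consistently, with *Il6st* the higher in 7 of 10 libraries. *Il6ra* followed at 37.3 ± 2.84 CPM per kilobase (SD, n = 5) and *Stat3* at 34.6 ± 2.37 CPM per kilobase (SD, n = 5), and the ranges of these neighbours overlapped. *Socs3* had 16.9 ± 1.08 CPM per kilobase (SD, n = 5), below *Stat3* in every library without overlap. *Jak2* had 12.1 ± 0.527 CPM per kilobase (SD, n = 5) and *Lifr* 9.72 ± 1.45 CPM per kilobase (SD, n = 5), and *Jak2* was the higher of both in 10 of 10 libraries, although by as little as 1.03-fold. *Socs2*, at 0.197 ± 0.0770 CPM per kilobase (SD, n = 5), was at least 28.8-fold below *Lifr* in each library.

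**Figure D1:**
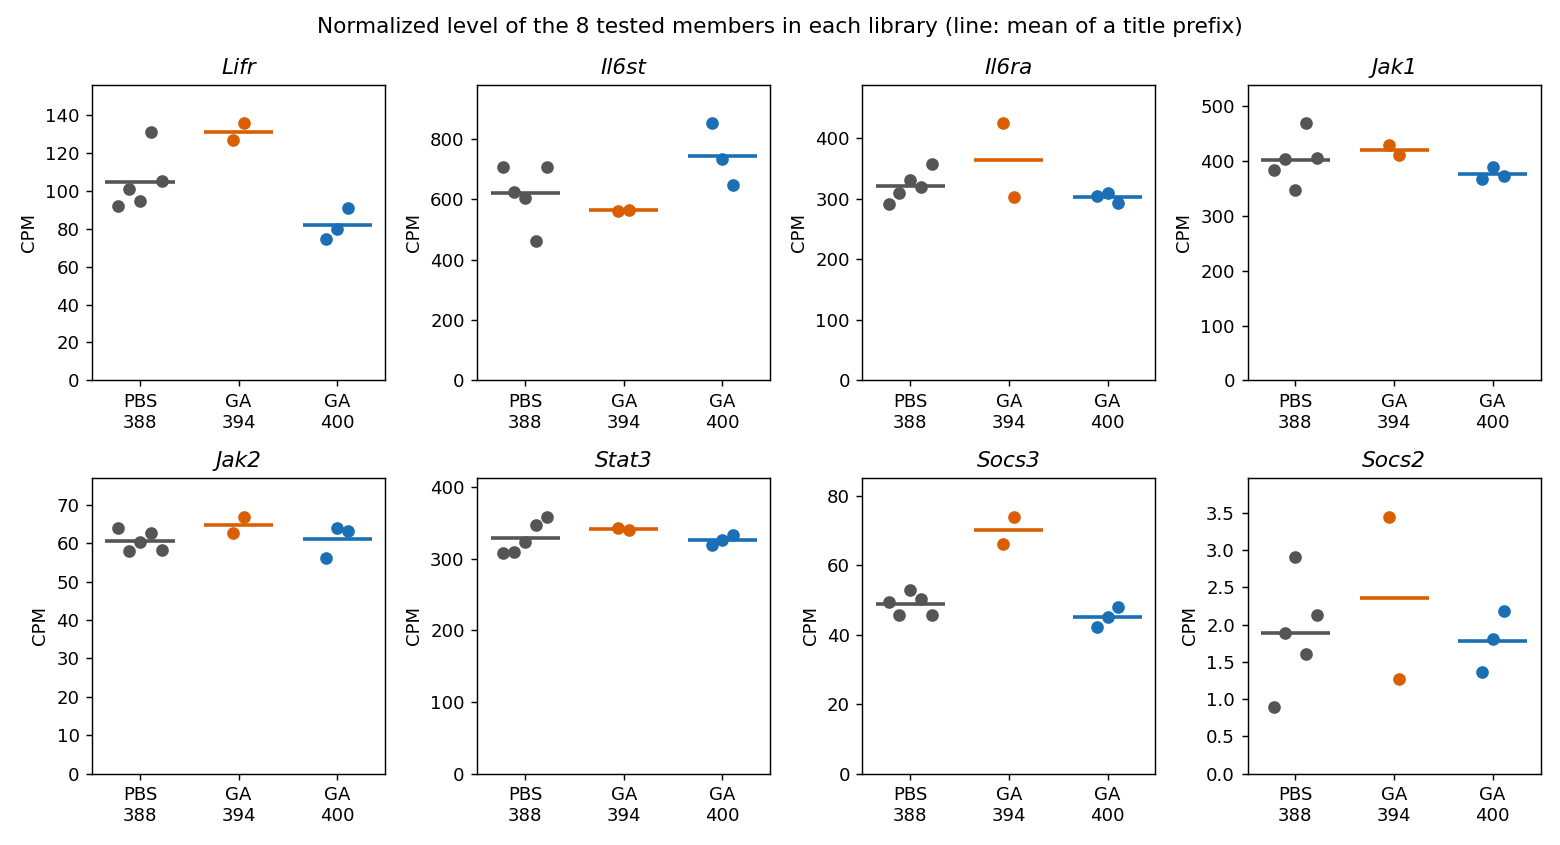
Normalized level in CPM (vertical axes, starting at 0) of the 8 members that were tested, with 1 point per library and a line at the mean of each title prefix (PBS 388, GA 394 and GA 400). The *Lifr* and *Socs3* points of prefix 394 lie above those of prefix 400, while the *Il6st* points of prefix 400 lie above those of prefix 394.

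Averaged over all 5 libraries of a treatment, GA and PBS microglia had similar levels of the members. The quasi-likelihood F-test of edgeR called 0 of the 8 members tested after adjustment, and 0 reached 0.05 without it. DESeq2, which gives a p-value to all 10, likewise had 0 of each. Over all 14481 genes tested by edgeR, 0% passed the threshold of 0.05 after adjustment and 5.75% before it, and DESeq2 called 2 genes after adjustment. The libraries of the 2 treatments overlapped for all 8 members, whereas they did not overlap for 0.891% of all genes. The median log2 fold change was 0.03 over the 8 members and 0.00 over all genes, and 6 members were higher and 2 lower in GA by the fit.

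Among the receptors, *Lifr* (chr15:7090614-7197489, plus strand) had 92.0, 101, 94.4, 131 and 105 CPM in PBS libraries 388_1 to 388_5. In the GA group it had 127 and 136 CPM in 394_1 and 394_2 and 74.8, 79.7 and 91.2 CPM in 400_1, 400_2 and 400_3. The GA libraries thus stood on both sides of the PBS range, with the 3 of prefix 400 below every PBS library and 394_2 above every one. The means and SDs over 5 libraries each were 105 ± 15.6 CPM for PBS and 102 ± 27.8 CPM for GA. The fitted log2 difference of *Lifr*, GA minus PBS with its standard error, was -0.04 ± 0.16 (edgeR adjusted *P* = 0.980, two-sided exact permutation *P* = 0.730). Leaving out PBS library 388_4, GA library 400_1 or GA library 400_2 turned its sign, with log2 differences of up to 0.05.

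Among the members above 10 CPM, the gene for gp130 had the highest coefficient of variation in the PBS group, at 16.1%. *Il6st* (chr13:112464070-112510086, plus strand) had 705, 624, 605, 463 and 708 CPM in PBS libraries 388_1 to 388_5. The GA libraries had 563 and 566 CPM with prefix 394 and 851, 734 and 648 CPM with prefix 400. Here the order of the prefixes was opposite to that of *Lifr*, and PBS library 388_4, the highest of its group for *Lifr*, was the lowest for *Il6st*. The means and SDs of *Il6st* over 5 libraries each were 621 ± 99.8 CPM for PBS and 672 ± 122 CPM for GA. The fitted log2 difference was 0.11 ± 0.13 (edgeR adjusted *P* = 0.945, exact permutation *P* = 0.492), and it was 0.03 without PBS library 388_4 and 0.02 without GA library 400_1.

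**Figure D2:**
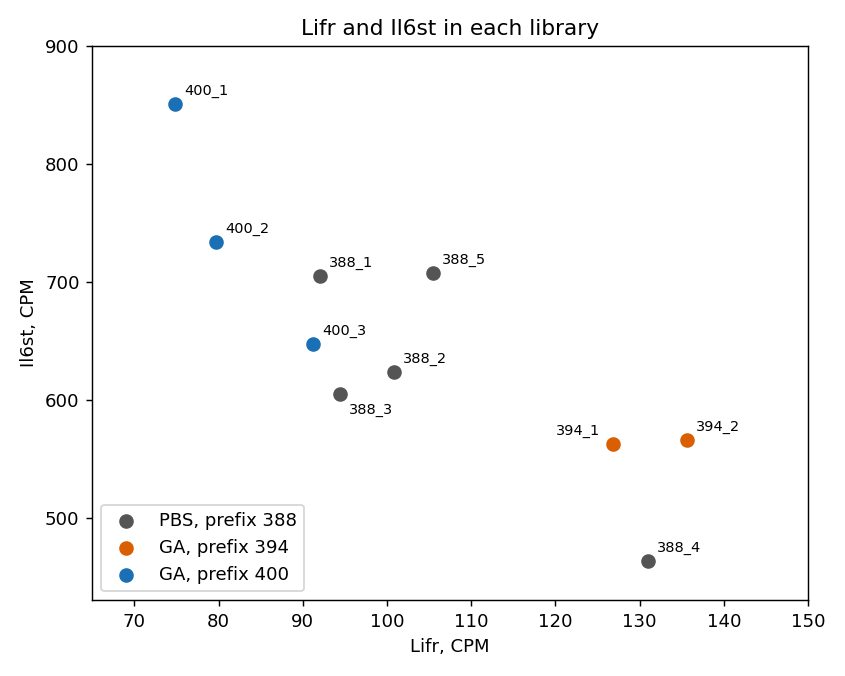
CPM of *Lifr* (horizontal axis) against CPM of *Il6st* (vertical axis, both axes not starting at 0), with 1 labelled point per library. The points run from 400_1, with the least *Lifr* and the most *Il6st* (74.8 and 851 CPM), down to 394_1, 394_2 and 388_4, while the order is not strict among the points between.

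Across the 10 libraries the log2 levels of *Lifr* and *Il6st* had a Pearson correlation of -0.86, given as a description, since the points share the prefixes by which *Lifr* was chosen. The ratio of *Il6st* to *Lifr* CPM was 6.10 ± 1.54 (SD, n = 5) in the PBS group. In the GA group it was 4.43 and 4.17 in 394_1 and 394_2, against 11.4, 9.20 and 7.10 in 400_1, 400_2 and 400_3. Within the PBS group it ran from 3.54 in 388_4 to 7.66 in 388_1, so that 400_1 and 400_2 lay above every PBS library, and 394_1, 394_2 and 400_3 lay within the PBS range.

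*Il6ra* (chr3:89864059-89913196, minus strand), the interleukin-6 binding chain, had 292, 309, 331, 320 and 358 CPM in PBS libraries 388_1 to 388_5. It had 425 and 304 CPM in 394_1 and 394_2 and 305, 310 and 294 CPM in 400_1, 400_2 and 400_3. Apart from 394_1 the GA libraries lay within the PBS range, and the fitted log2 difference was 0.02 ± 0.10 (edgeR adjusted *P* = 0.983, exact permutation *P* = 0.929). Of its exon bases, 242 are shared with *Gm42809* on the opposite strand. The oncostatin M receptor gene *Osmr* (chr15:6813577-6874969, minus strand) was counted 8 times in PBS library 388_3 and 0 times in each of the other libraries, where a count of 0 allows for up to 3 reads. No fold is given for *Osmr*.

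For the kinases and STAT3, most GA libraries lay within the PBS range. *Jak1* (chr4:101152367-101265282, minus strand) had 383, 404, 347, 469 and 406 CPM in PBS libraries 388_1 to 388_5, 429 and 412 CPM in 394_1 and 394_2, and 367, 389 and 372 CPM in 400_1, 400_2 and 400_3. All 5 GA libraries fell within the PBS range, and the fitted log2 difference was -0.03 ± 0.08 (edgeR adjusted *P* = 0.975). Its sign turned without PBS library 388_4, to 0.03, and it became 0.00 without GA library 400_1. *Jak2* (chr19:29251828-29313080, plus strand) had the lowest coefficient of variation in the PBS group, 4.37%, with 58.1 to 63.9 CPM over the PBS libraries, 62.6 and 66.9 CPM with prefix 394 and 56.2 to 63.9 CPM with prefix 400. For *Jak2* the fitted log2 difference was 0.05 ± 0.07 (edgeR adjusted *P* = 0.955).

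*Stat3* (chr11:100885098-100939540, minus strand) had 308, 309, 323, 346 and 359 CPM in PBS libraries 388_1 to 388_5. The GA libraries had 342 and 340 CPM with prefix 394 and 319, 326 and 333 CPM with prefix 400, all within the PBS range. The means and SDs over 5 libraries each were 329 ± 22.6 CPM for PBS and 332 ± 9.85 CPM for GA, a difference smaller than either SD. For *Stat3* the fitted log2 difference was 0.01 ± 0.06 (edgeR adjusted *P* = 0.984).

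Among the inhibitors, *Socs3* (chr11:117966079-117970047, minus strand) was tightly grouped in PBS microglia, with 49.5, 45.6, 52.7, 50.3 and 45.5 CPM in libraries 388_1 to 388_5. GA libraries 394_1 and 394_2 had 66.0 and 73.9 CPM, above every PBS library, whereas 400_1, 400_2 and 400_3 had 42.3, 45.2 and 48.1 CPM, the first 2 of them below every PBS library. The coefficient of variation was 6.40% in the PBS group and 25.4% in the GA group. The means and SDs over 5 libraries each were 48.7 ± 3.12 CPM for PBS and 55.1 ± 14.01 CPM for GA. The fitted log2 difference of *Socs3* was 0.18 ± 0.14 (edgeR adjusted *P* = 0.915, exact permutation *P* = 0.429), the largest among the 8 members tested, and it was 0.05 without 394_2 and 0.10 without 394_1. *Socs3* was covered by 1464 to 2633 reads per library.

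*Socs2* (chr10:95385362-95417180, minus strand) was counted only 34 to 115 times per library. It had 0.890, 1.88, 2.90, 1.61 and 2.13 CPM in PBS libraries 388_1 to 388_5, 3.45 and 1.26 CPM in 394_1 and 394_2, and 1.36, 1.81 and 2.187 CPM in 400_1, 400_2 and 400_3. The libraries of each kind were widely scattered, and the fitted log2 difference was 0.10 ± 0.36 (edgeR adjusted *P* = 0.980). *Cish* (chr9:107296026-107302784, plus strand) was counted 4 to 21 times per library, with means and SDs of 0.280 ± 0.205 CPM for PBS and 0.341 ± 0.148 CPM for GA (exact permutation *P* = 0.421). Some of its exon bases are shared with *Gm17040* (261) and *Gm17041* (479) on the opposite strand, and no difference was detected with these low counts.

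**Figure D3:**
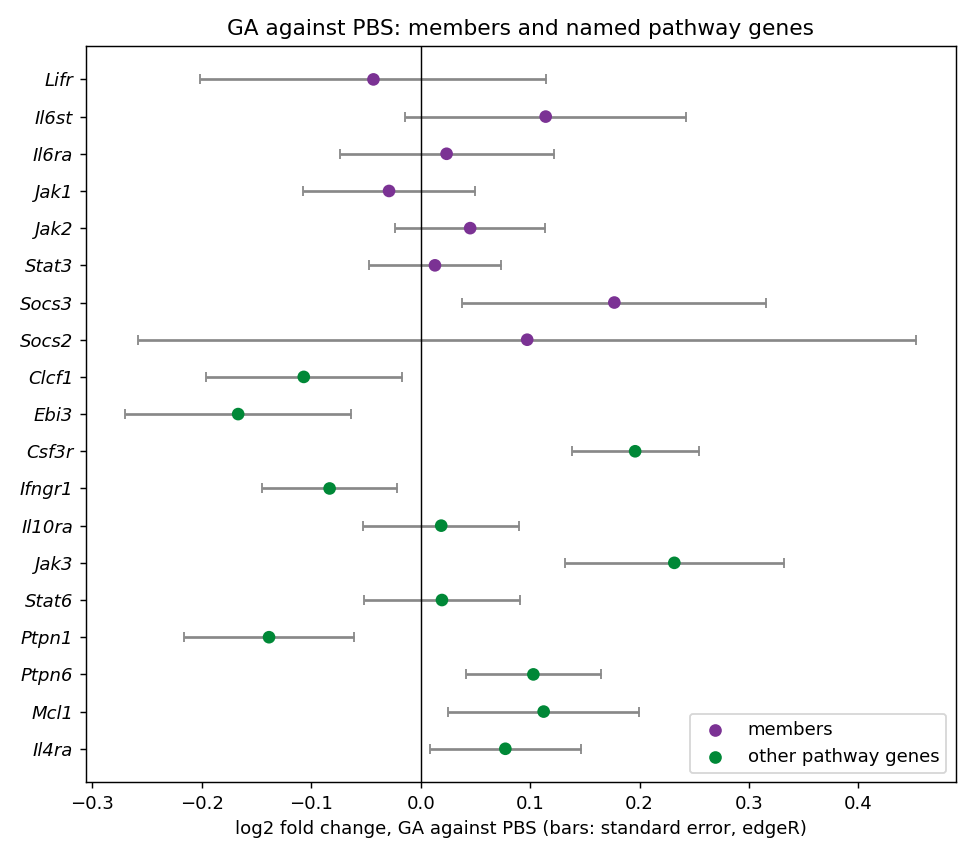
Log2 fold change of GA against PBS (horizontal axis) with its standard error from edgeR, for the 8 tested members and for 11 other named genes of the pathway; *Lcn2*, at -1.96, is left off the scale. The members run from -0.04 for *Lifr* to 0.18 for *Socs3*.

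The contrast on which the members were chosen sets the 2 GA libraries of prefix 394 against the 3 of prefix 400. *Lifr* had a mean of 131 CPM with prefix 394 and 81.9 CPM with prefix 400, 1.602-fold higher with prefix 394, and *Socs3* had means of 69.9 and 45.2 CPM, 1.55-fold higher. *Il6st* was 1.32-fold higher with prefix 400. The 2 prefixes did not overlap for 5 of the 8 members (*Lifr*, *Il6st*, *Socs3*, *Stat3* and *Jak1*), where 27.7% of all genes tested did not overlap. Nothing is read from this count, as the contrast chose the members. For *Stat3* and *Jak1* the differences were small, with 1.05-fold and 1.12-fold higher means in prefix 394.

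Relative to the PBS mean, the prefixes departed in different ways for the 2 genes that led to the choice. On the log2 scale *Lifr* was 0.34 above the PBS mean with prefix 394 and 0.35 below it with prefix 400 (a difference of -0.35). *Socs3* was 0.52 above the PBS mean with prefix 394 and differed from it by -0.11 with prefix 400, where 400_1 and 400_2 were below every PBS library. For *Il6st* the differences were -0.12 with prefix 394 and 0.27 with prefix 400. The 5 remaining tested members departed from the PBS mean by at most 0.24, reached by *Socs2* with prefix 394.

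**Figure D4:**
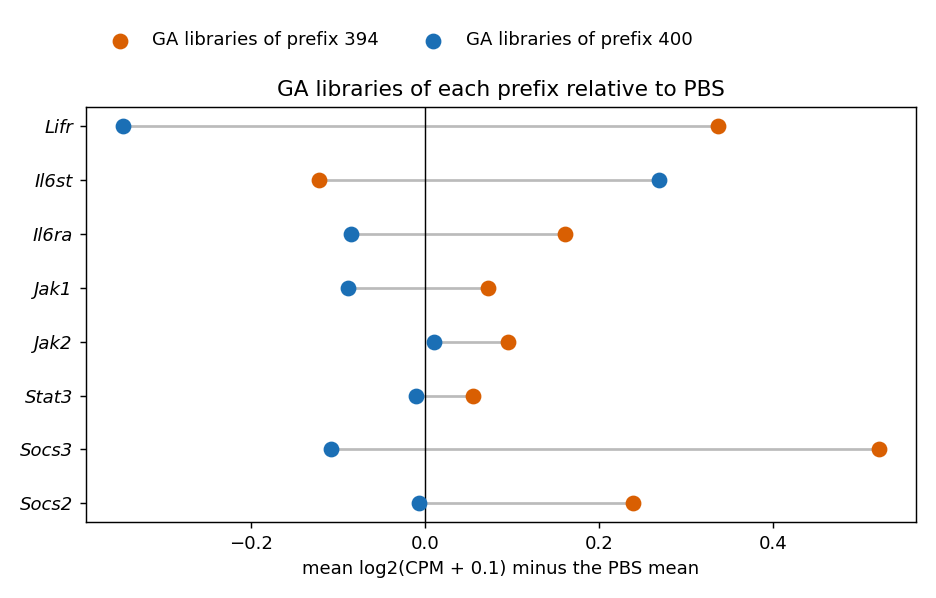
Mean log2(CPM + 0.1) of the GA libraries of prefix 394 (2 libraries) and prefix 400 (3 libraries) minus the PBS mean, for the 8 tested members. *Lifr* and *Socs3* show the widest distance between the prefixes, and *Il6st* is the member with prefix 400 on the high side.

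Some other transcripts also differed between the prefixes. The 14 dissociation and immediate early genes summed to 909 to 1345 CPM in the PBS libraries, to 1111 and 1554 CPM in 394_1 and 394_2, and to 916 to 995 CPM in the libraries of prefix 400. Of the 14, *Jun*, *Zfp36*, *Ier2*, *Dusp1* and *Hspa1a* did not overlap between the prefixes, as was the case for 27.7% of all genes tested. The widest gaps in CPM were those of *Jun* (275 and 509 against 159 to 175) and *Zfp36* (211 and 297 against 154 to 181). The others overlapped, *Fos*, *Junb*, *Egr1* and *Btg2* among them. Markers of border macrophages summed to 46.1 and 79.0 CPM with prefix 394 and to 82.1 to 177 CPM with prefix 400. For *Cd163* and *Lyve1* of this list the prefixes overlapped, while they did not for *Mrc1*, *Cbr2* and *F13a1*. The 5 endothelial markers summed to 34.4 and 38.8 CPM with prefix 394 and to 44.5 to 49.0 CPM with prefix 400, mostly from *Pecam1*. *Flt1* overlapped between the prefixes, and *Cldn5* and *Ly6c1* were at 0 in 8 of 10 libraries each. Whether these transcripts have a part in the differences of *Lifr*, *Socs3* and *Il6st* was not tested.

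The genes closest in pattern to *Lifr* over the 10 libraries, among 9818 genes with a mean of at least 5 CPM, were *Arhgap22* (Pearson r = 0.95), *Fkbp5* (0.93), *Fgd4* (0.93), *Mlph* (0.92) and *Ppp1r21* (0.92). *Fkbp5*, a well-known glucocorticoid-induced gene that encodes a chaperone partner of the glucocorticoid receptor, had the widest range of them. It had 260 and 247 CPM in 394_1 and 394_2, 69.0 to 88.7 CPM with prefix 400 and 83.9 to 176 CPM with PBS, where 388_4 was again the highest library. Closest to *Socs3* were *2810021J22Rik* (0.93), *Mospd3* (0.90), *Ptpn22* (0.90), *Jun* (0.88) and *Ap1m1* (0.86). *Jun*, an immediate early transcription factor, had 275 and 509 CPM in 394_1 and 394_2, 160.2 to 277 CPM with PBS and 159 to 175 CPM with prefix 400. The 5 genes closest to *Socs3* were not those closest to *Lifr*. These correlations are descriptions, as all of them share the same 10 libraries and prefixes.

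**Figure D5:**
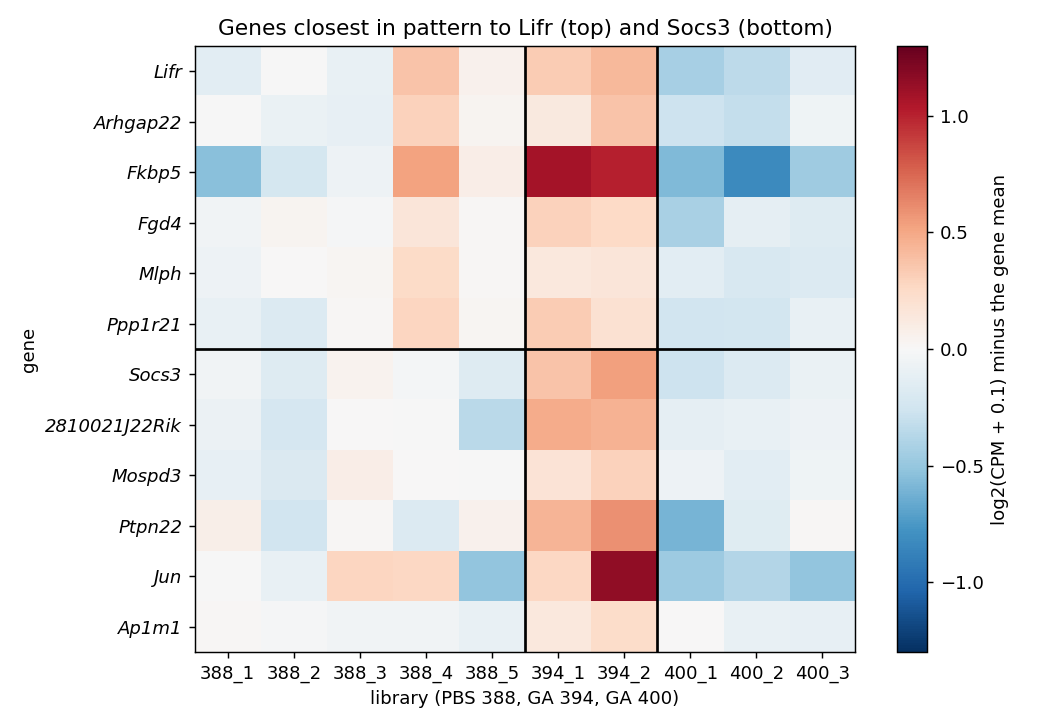
Log2(CPM + 0.1) minus the mean of the gene over the 10 libraries (colour scale) for *Lifr* and *Socs3* and the 5 genes closest in pattern to each, with the libraries ordered by prefix. All 12 genes are higher in both libraries of prefix 394 than in the 3 libraries of prefix 400, and the genes of the *Lifr* group are also raised in PBS library 388_4.

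The rest of the pathway was described by a list of 57 ligands, receptors, kinases, inhibitors and STAT3 targets. Of these, 48 passed the filter on low counts, and edgeR and DESeq2 both called 0 after adjustment. Without adjustment, 3 of the 48 reached 0.05 in edgeR, where 5.75% of all genes did, and 3 in DESeq2, where 1245 of 27495 genes did. The median log2 fold change of the 48 was 0.02, against 0.00 over all genes tested.

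Of the 10 ligands, 5 passed the filter, and 0 of them reached an unadjusted p-value under 0.05 in edgeR. By the mean over all libraries the most abundant were *Clcf1*, which encodes a cytokine of the ciliary neurotrophic factor receptor, at 38.6 ± 4.54 CPM for PBS against 35.8 ± 1.61 CPM for GA, and *Ebi3*, a subunit of interleukin-27, at 28.5 ± 2.58 against 25.4 ± 3.08 CPM (mean ± SD of 5 libraries, as for the genes that follow). *Osm*, the gene for oncostatin M, named after its values were seen, was close to *Ebi3* at 25.8 ± 2.99 against 27.3 ± 3.98 CPM, and was the higher of both in the GA group. Among those that did not pass, and named after their values were seen, were *Lif* (0 to 14 counts per library), *Cntf* (0 to 3), *Ctf1* (0 to 23) and *Il11* (0 in every library). *Lif*, the ligand of the receptor described here, was at 0 in every library of the PBS group and of prefix 400, and its counts came almost wholly from 1 library of prefix 394, with 14 counts (0.393 CPM). It did not pass the filter on low counts (exact permutation *P* = 0.444), and in the edgeR fit without that filter it reached an unadjusted p-value under 0.05.

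Of the 10 other receptors, *Csf3r*, the receptor of granulocyte colony-stimulating factor and a structural relative of gp130, had the smallest unadjusted p-value, 0.00453 in edgeR. It had 907, 817, 849, 853 and 794 CPM in PBS libraries 388_1 to 388_5, and 964, 1012, 978, 997 and 884 CPM in GA libraries 394_1, 394_2, 400_1, 400_2 and 400_3. The libraries of both GA prefixes were higher than most PBS libraries, with 400_3 the lowest of them and within the PBS range. The fitted log2 difference was 0.20 ± 0.06 (edgeR adjusted *P* = 0.847, exact permutation *P* = 0.0159), so that the difference did not pass the adjustment over all genes. *Ifngr1* and *Il10ra*, receptor chains for interferon gamma and interleukin-10, were the most abundant receptors of the list. *Ifngr1* had 1559.9 ± 128 CPM for PBS against 1472 ± 55.0 CPM for GA, and *Il10ra* had 987 ± 33.1 against 999.7 ± 106 CPM.

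Among 8 other kinases and STATs, 7 were tested and 1 had an unadjusted p-value under 0.05 in edgeR. All 7 fitted differences were above 0, from 0.01 to 0.27, as were those of 7250 of all 14481 genes. This was *Jak3*, which signals for receptors with the common gamma chain, at 185 ± 30.7 CPM for PBS against 217 ± 14.8 CPM for GA. The fitted log2 difference was 0.23 ± 0.10 (edgeR adjusted *P* = 0.854, exact permutation *P* = 0.0873), and its unadjusted p-value was above 0.05 in 6 of the 10 fits that left out a library (without 388_3, 388_4, 388_5, 394_2, 400_1 or 400_3). *Stat6*, the STAT of interleukin-4 signalling, had 344 ± 22.4 against 348 ± 30.5 CPM.

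All 13 further inhibitors were tested, and 0 had an unadjusted p-value under 0.05 in edgeR. The phosphatase genes *Ptpn6* and *Ptpn1* were the most abundant. *Ptpn6* had 574 ± 30.5 CPM for PBS against 616 ± 38.8 CPM for GA, and *Ptpn1* had 343 ± 31.9 against 312 ± 26.9 CPM.

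Of 16 STAT3 targets, 15 were tested and 1 had an unadjusted p-value under 0.05 in edgeR. *Lcn2*, which encodes an iron-trafficking protein also stored in neutrophil granules, had 8.14, 1.88, 22.8, 11.2 and 21.3 CPM in PBS libraries 388_1 to 388_5. It had 1.86 and 8.06 CPM in 394_1 and 394_2 and 1.16, 0.681 and 5.02 CPM in 400_1, 400_2 and 400_3. The groups overlapped, and the fitted log2 difference was -1.96 ± 0.65 (edgeR adjusted *P* = 0.847, exact permutation *P* = 0.0397), which became -2.57 without GA library 394_2. The 7 neutrophil markers summed to 36.0 to 423 CPM in the PBS libraries and to 9.76 to 160.5 CPM in the GA libraries, and 6 of the 7 were lower in GA with an unadjusted p-value under 0.05 in edgeR, as were 459 of all 14481 genes. The part of these transcripts in the difference of *Lcn2* was not tested. The most abundant targets in the list were *Mcl1*, a survival factor, at 365 ± 50.7 CPM for PBS against 395 ± 11.4 CPM for GA, and *Il4ra*, the interleukin-4 receptor chain, at 301 ± 23.4 against 317 ± 20.5 CPM.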

How the data were processed

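The authors deposited raw counts of reads per gene symbol for 10 libraries, without normalization. The submitters' processing notes name bcl2fastq 2.19.0, fastp 0.20.0, STAR 2.7.0f, Subread 1.6.4 with featureCounts, DESeq2 and the build GRCm38.p6. The annotation and the strand setting are not given in the sources used here, so reads of overlapping genes cannot be assigned to a strand. Total counts were 32332185 to 38764643 per library, and no library was a copy of another (chi-square per degree of freedom of at least 13.0 over 45 pairs). The limit of 3 reads given for a count of 0 covers counting error only.

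Groups were taken from the treatment labels. Counts were filtered with filterByExpr (minimum count 10), which kept 14481 genes, normalized by TMM and compared between GA and PBS with the quasi-likelihood F-test of edgeR 4.0.16 (R 4.3.3) without a covariate, with Benjamini-Hochberg adjustment over all genes and a threshold of 0.05. DESeq2 1.42.0 was an alternative. For single genes, group means of log2(CPM + 0.1) were also compared by exact permutation (two-sided, smallest possible p-value 0.00794). The code of the fit was tested on simulated data as a check of its workings only. Gene positions and merged exon lengths came from GENCODE M21 (GRCm38). The members and gene lists were chosen with earlier results of these data known. The genes named were the members, in each role of the pathway list the 2 most abundant genes and any with an unadjusted p-value under 0.05, and the 5 genes closest in pattern to *Lifr* and to *Socs3*. Some items are not reported here.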

Additional observations from a re-analysis of the deposited data

Results flagged for a closer look

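In groups of 5 libraries, a library was marked where its gap to the nearest other library exceeded 0.71 of the range of the group, which chance alone gives in about 1 of 20 groups. Of 40 groups examined over 20 genes, 5 held such a library. Among the members this was *Il6ra* in the GA group, where 394_1 had 425 CPM and the gap was 0.875 of the range. Among the other pathway genes the gap was 0.833 of the range for *Ifngr1* (1786 CPM in 388_5, the highest PBS library), 0.871 for *Il10ra* (928 CPM in 388_5, the lowest PBS library), 0.863 for *Stat6* (403 CPM in 394_2, the highest GA library) and 0.731 for *Il4ra* (341 CPM in 388_5, the highest PBS library). Of these 5, 3 concern PBS library 388_5.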

How the results depend on the processing

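The count of members with an adjusted p-value under 0.05 was 0 under all 16 alternatives to the edgeR comparison, and the adjusted p-values of the 8 members ran from 0.599 to 1.0 over them. The count with an unadjusted p-value under 0.05, 0 with all libraries, was 1 without a filter on low counts (*Osmr*, counted in 1 library), 2 with the GA libraries of prefix 394 alone (*Lifr* and *Socs3*) and 1 with those of prefix 400 alone (*Lifr*); the last 2 settings share the libraries on which the members were chosen. Over all genes, 1901 of 27564, 503 of 15537 and 977 of 15108 reached 0.05 in these 3 settings. For the pathway list the count of 3 became 5 without the filter (with *Lif* and *Hif1a* added), 10 with prefix 400 alone, and 2 to 5 on leaving out single libraries, with 5 without PBS library 388_5 (1137 of 14729 over all genes) or GA library 394_2 (995 of 14692). The log2 fold change changed sign with prefix 394 alone for *Lifr* (0.33), *Il6st* (-0.13) and *Jak1* (0.07), and with prefix 400 alone for *Il6ra* (-0.08), *Socs3* (-0.10), *Stat3* (-0.01) and *Socs2* (-0.07). Without one library it ran from -0.17 to 0.05 for *Lifr*, 0.02 to 0.17 for *Il6st*, 0.05 to 0.26 for *Socs3*, 0.02 to 0.09 for *Jak2*, -0.09 to 0.07 for *Il6ra*, -0.01 to 0.05 for *Stat3*, -0.08 to 0.03 for *Jak1* and -0.18 to 0.31 for *Socs2*, and from -2.57 to -1.66 for the pathway gene *Lcn2*. The cause was not tested. The difference of *Lifr* between prefixes 400 and 394 stayed between -0.76 and -0.62, and that of *Socs3* between -0.71 and -0.55, over the 7 alternatives run for them (size factors, pseudocount and leaving out each GA library).

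The numbers in the titles showed no sign of pairing the libraries. Deviations from the group means had correlations of -0.116 to 0.0489 between same-numbered libraries, and 1 of 5 GA libraries correlated best with its own number. With 5 libraries per group this check cannot exclude a pairing. With the title number as a replicate block, 0 members were called, the log2 fold changes of *Lifr* and *Jak1* were 0.07 and 0.04, and that of *Il6st* was 0.05. Under this block 4 pathway genes had an unadjusted p-value under 0.05 in edgeR (*Clcf1*, *Csf3r*, *Hif1a* and *Bcl6*), *Jak3* (0.10) and *Lcn2* (-1.36) no longer did, and 983 genes had an unadjusted p-value under 0.05, against 833 without it. Counts were lowest for *Osmr*, *Cish* and *Socs2* (0 to 115 per library).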

Other observations

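Of the 48 pathway genes tested, 14 did not overlap between prefixes 394 and 400, which was also the case for 4006 of all 14481 genes (27.7%). Of the 14, 8 were higher with prefix 400 and 6 with prefix 394, and the 6 STAT3 targets among them divided evenly. The 4 given here, outside the naming rule, were named after their values were seen. *Myc*, a growth-promoting transcription factor on the list of STAT3 targets, averaged 156 CPM with prefix 394 (2 libraries) and 66.4 CPM with prefix 400 (3 libraries), against 75.7 to 103 CPM over the PBS libraries. *Cebpb*, a transcription factor of myeloid inflammatory genes, averaged 148 CPM with prefix 394 and 98.1 CPM with prefix 400, against 117 to 147 CPM over the PBS libraries. In the other direction, *Hif1a*, a transcription factor of the hypoxia response, averaged 229 CPM with prefix 394 and 264 CPM with prefix 400, and *Icam1*, an adhesion molecule, averaged 253 and 286 CPM.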
